A study of Mus musculus with 10 samples.

Results

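Transcripts of 10 genes that encode subunits of the Polycomb repressive complexes were followed in RNA-seq of mouse embryonic stem cells (ESC): Ezh2, Eed, Suz12, Jarid2, Mtf2, Rnf2, Ring1, Pcgf6, Cbx7 and Kdm2b. They were found by gene symbol among 43031 features, each the annotated 3′UTR of a transcript plus 2 kb downstream, at 28706 distinct sites in mm10. The 10 genes had 30 features at 18 sites. All ESC were C57BL/6 and grown with LIF and serum, on mitomycin C-treated fibroblast feeders or on gelatin; which of the 2 supports each library came from is not given in the sources used here. WT cells carry no DIDO mutation. DIDO3ΔE16 cells are homozygous for a Cre-mediated deletion of the floxed last exon of DIDO3, and DIDO3ΔCT+HADIDO3 cells carry an older constitutive C-terminal deletion that affects the same exon and express DIDO3 with an HA tag. Each group had 3 libraries, and whether these came from separate cultures is not stated, so p-values measure the spread between these libraries, which may be technical. WT replicates 2 and 3 share a library and were counted once as WT replicate 2-3. Flow cells of another family were used for WT replicates 1 and 4 than for the remaining libraries.

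Polycomb complexes keep developmental genes silent in ESC. PRC2, built on EZH2, EED and SUZ12, trimethylates histone H3, and comes in a form with JARID2 and a form with Polycomb-like proteins such as MTF2. PRC1, built on RING1 or RNF2, ubiquitinates histone H2A. Its PCGF subunit sets its type: PCGF6 belongs to a variant complex, KDM2B brings the PCGF1 complex to unmethylated CpG islands, and CBX7 lets canonical PRC1 read the mark that PRC2 leaves.

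The 3′ ends of these genes are shown here because each window is placed by one of them. GENCODE transcripts ended within 25 bases of 22298 of the 27344 distinct 3′ ends in the annotation used by the authors, and the last 50 bases of the transcript were searched, on its own strand, for the poly(A) signals AATAAA and ATTAAA. Among the ends matched, 71.1% held at least 1 of them (57.8% AATAAA, 16.5% ATTAAA, 719 ends both). In the sequences below, 5′ to 3′ on the transcript's strand in mm10, capitals mark each signal.
Eed, chr7:89954666-89954695, reverse strand: aagaAATAAAgttgtaccatatctttttgt
Jarid2 (distal end), chr13:44921614-44921643, forward strand: gtttaatAATAAAaagttttttggacattt
Pcgf6 (distal end), chr19:47033617-47033646, reverse strand: tgacatttAATAAAaatttattttagccaa
Ring1, chr17:34020797-34020826, reverse strand: gtggATTAAAggtggaggcaggccgttctc
Cbx7 (long window), chr15:79915813-79915842, reverse strand: aaaaattATTAAAaaatacATTAAAatgtc
Kdm2b (distal end), chr5:122870679-122870708, reverse strand: cctttgttggatttatataaacaattgtac
Suz12, chr11:80034094-80034123, forward strand: taatataaagctgtcttctgcttttcttca
Neither signal was found in the last 50 bases at the Kdm2b and Suz12 ends, and the stretch shown for them is the end of the transcript itself. The ends shown are a selection. Among the others, neither signal was found for Rnf2, internal Ezh2, internal Pcgf6, Jarid2 at chr13:44885028, and Kdm2b at chr5:122875482 and chr5:122887847. A signal was found for the short Cbx7 window and for Kdm2b at chr5:122940615. Distal Ezh2, Jarid2 at chr13:44914376 and Mtf2 had no GENCODE transcript end within 25 bases and were not searched.

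Coverage of the features added up to 1.46 to 2.62 Gb in a library, so that 1 TPM equalled 0.434 to 0.775 reads over each base. TPM is normalised for the length of the whole window, of which annotated exons take up different shares in different genes, so levels of different genes are levels of their windows and not of their transcripts. The most distal Dido1 site, which checks the targeted exon, had 13.7 to 17.9 TPM in WT, 0.307 to 0.546 TPM in DIDO3ΔE16 and 10.9 to 12.1 TPM in DIDO3ΔCT+HADIDO3. All 8 ESC markers examined were above 1 TPM in every library, although Nanog stood at 3.10 TPM in 1 WT library and Esrrb at 5.18 and 8.78 TPM in 2 of the 3 WT libraries and at 9.70 TPM in 1 of DIDO3ΔCT+HADIDO3. Sites were called where the log2 fold change reached 0.7 in either direction with adjusted p below 0.05, in a fit of every site detected (TPM over 0) in all 6 libraries compared. With 3 libraries in each group, a test of a single value cannot give an exact permutation p below 0.1.

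Fitted log2 fold changes were below 0.3 in size at 11 of 17 Polycomb sites in DIDO3ΔE16 relative to WT, 8 of 18 in DIDO3ΔCT+HADIDO3 relative to WT and 10 of 17 between the mutants. In DIDO3ΔE16 compared with WT, none of the 17 Polycomb sites tested was called by limma, against 15.1% of all 21063 sites tested; 6 had an unadjusted p under 0.05 and 4 an adjusted p under 0.05, the latter against 33.2% of all sites. In DIDO3ΔCT+HADIDO3 compared with WT, 1 of 18 was called, the distal site of Kdm2b, which fell, against 17.3% of all sites. Between the mutants, 2 of 17 were called, both in Kdm2b and both higher in DIDO3ΔE16, against 27.4% of all sites. TPM of the groups did not overlap at 9, 8 and 12 Polycomb sites in these comparisons, in the same order. The share over all sites was 49.4%, 53.5% and 61.6%. Overlap was judged here and below on TPM not scaled between libraries, whereas fold changes were fitted after scaling. The median log2 fold change of the Polycomb sites tested was 0.05, -0.24 and 0.15, beside -0.01, -0.01 and 0.01 for all sites. The comparisons share libraries pairwise and are not independent of each other.

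**Figure D1:**
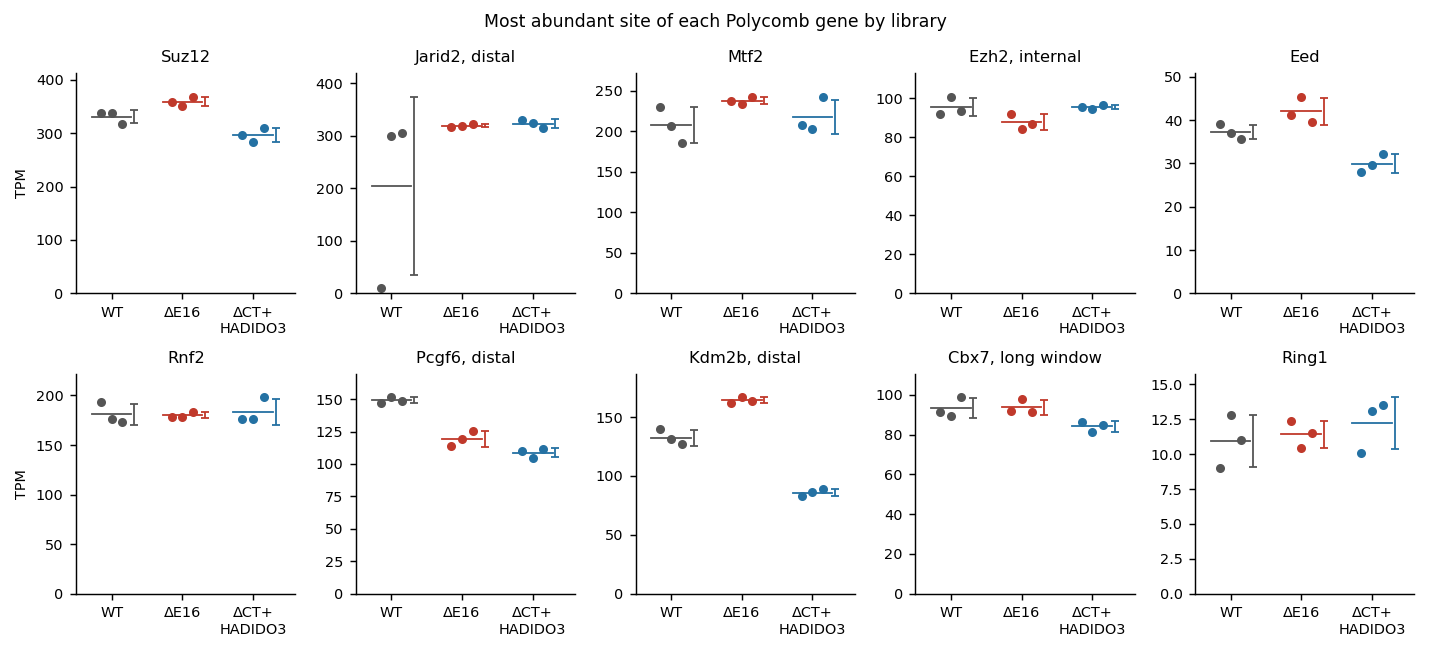
TPM of the most abundant site of each of the 10 genes in WT, DIDO3ΔE16 (ΔE16) and DIDO3ΔCT+HADIDO3 (ΔCT+HADIDO3) ESC; points are libraries, horizontal lines the mean of 3 and error bars the SD. Kdm2b lay at 127 to 140 TPM in WT, 162 to 167 in ΔE16 and 82.6 to 88.7 in ΔCT+HADIDO3 with no overlap, whereas Rnf2 and Ring1 overlapped between all groups and Jarid2 had 1 low WT library at 9.79 TPM.

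The windows of the most abundant sites differ in their exonic share, from 9.0% for Ezh2, which is represented here by its internal intronic site, and 12.4% for Eed to 72.7% for Cbx7, and the order of their levels holds for windows only. The window of Suz12 had the highest median TPM in WT (338), followed by Jarid2 (300), Mtf2 (206), Rnf2 (176), Pcgf6 (148), Kdm2b (131), Ezh2 (93.5), Cbx7 (91.4), Eed (36.9) and Ring1 (11.004). Neighbours in this order whose WT libraries overlapped were Jarid2 and Mtf2, through the low library of Jarid2, Mtf2 and Rnf2, and Ezh2 and Cbx7. In DIDO3ΔE16 the median of Kdm2b (164 TPM) lay above that of Pcgf6 (119 TPM), with no overlap. In DIDO3ΔCT+HADIDO3 it lay below both Pcgf6 (110 TPM) and Ezh2 (95.5 TPM), at 86.0 TPM. The window of Rnf2 (48.9% exonic) had 174 to 198 TPM over the 9 libraries, and that of its paralogue Ring1 (22.8% exonic) 9.04 to 13.5 TPM.

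Eed encodes the PRC2 subunit that binds trimethylated H3. Its window (chr7:89952654-89954936) holds 283 bases of 3′UTR and 2000 bases beyond the gene. It had 39.1, 36.9 and 35.7 TPM in WT, 41.2, 45.4 and 39.5 TPM in DIDO3ΔE16, and 28.05, 29.6 and 32.2 TPM in DIDO3ΔCT+HADIDO3. In TPM not scaled between libraries, those of DIDO3ΔCT+HADIDO3 were the 3 lowest and those of DIDO3ΔE16 the 3 highest. After scaling, DIDO3ΔE16 did not differ significantly from WT, at 0.11 ± 0.06 on the log2 scale (SE; limma, adjusted p = 0.263). The log2 fold change in DIDO3ΔCT+HADIDO3 relative to WT was -0.42 ± 0.05 (SE; limma, adjusted p = 0.00363), under the fold threshold. Between the mutants it was 0.51 ± 0.07 (adjusted p = 0.00278), also under the threshold.

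Suz12, the scaffold of PRC2, showed the same order with smaller differences. Its window (chr11:80032191-80036123) had 338, 338 and 318 TPM in WT, 358, 350 and 368 TPM in DIDO3ΔE16, and 297, 284 and 310 TPM in DIDO3ΔCT+HADIDO3. In these values, not scaled between libraries, no library of 1 group overlapped those of the next. The difference from WT was 0.05 ± 0.03 in DIDO3ΔE16 (limma, adjusted p = 0.276) and -0.26 ± 0.04 in DIDO3ΔCT+HADIDO3 (adjusted p = 0.00552) on the log2 scale, neither of them called.

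Ezh2, the methyltransferase, had a distal site at its main 3′ end (chr6:47528274-47530540) and an internal one (chr6:47550386-47552387) that holds only 2 bases of annotated 3′UTR and is 91.0% intron in GENCODE. The internal site had 92.0, 101 and 93.5 TPM in WT, 92.1, 84.4 and 86.9 TPM in DIDO3ΔE16, and 95.5, 94.4 and 96.5 TPM in DIDO3ΔCT+HADIDO3. It differed from WT by -0.18 ± 0.06 in DIDO3ΔE16 (limma, adjusted p = 0.0732). The distal site had 63.6, 4.31 and 60.0 TPM in WT, 54.9, 3.98 and 55.5 TPM in DIDO3ΔE16, and 59.9, 58.8 and 55.8 TPM in DIDO3ΔCT+HADIDO3. WT replicate 2-3 and DIDO3ΔE16 replicate 2 thus stood more than 10-fold below the other 7 libraries at this site, but not at the internal one. The fitted log2 fold change of the distal site in DIDO3ΔE16 was -0.21 ± 1.62, 1.05 without DIDO3ΔE16 replicate 2 and -1.48 without WT replicate 2-3. In DIDO3ΔCT+HADIDO3 it was 1.08 ± 1.16, and -0.19 without WT replicate 2-3. Between the mutants it was -1.31 ± 1.14, and -0.05 without DIDO3ΔE16 replicate 2.

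Jarid2 and Mtf2 define the 2 forms of PRC2. The distal Jarid2 site (chr13:44919953-44923643) had 9.79, 300 and 306 TPM in WT, 317, 318 and 322 TPM in DIDO3ΔE16, and 330, 325 and 314 TPM in DIDO3ΔCT+HADIDO3. Only WT replicate 1 was low. With it, the log2 fold change relative to WT was 1.66 ± 1.51 in DIDO3ΔE16 and 1.64 ± 1.51 in DIDO3ΔCT+HADIDO3, and without it 0.0005 and -0.02. An internal Jarid2 site (chr13:44914375-44916376, 2 bases of 3′UTR, 90.7% intron) was not low in WT replicate 1. It had 93.4, 98.3 and 89.5 TPM in WT, 107, 110 and 109 TPM in DIDO3ΔE16, and 94.1, 84.6 and 79.6 TPM in DIDO3ΔCT+HADIDO3. It was higher than WT in DIDO3ΔE16 by 0.15 ± 0.04 (limma, adjusted p = 0.0415) and higher in DIDO3ΔE16 than in DIDO3ΔCT+HADIDO3 by 0.36 ± 0.08 (adjusted p = 0.0151), both under the fold threshold. The last site of Jarid2, within the gene, had a mean of 0.708 to 0.989 TPM in each group. Mtf2 (chr5:108106946-108111219) had 230, 206 and 186 TPM in WT, 238, 233 and 242 TPM in DIDO3ΔE16, and 208, 203 and 242 TPM in DIDO3ΔCT+HADIDO3. Without scaling, the DIDO3ΔE16 libraries lay above those of WT and overlapped with DIDO3ΔCT+HADIDO3. No comparison had an adjusted p under 0.05 in limma (lowest 0.103).

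The jumps at Ezh2 and Jarid2 fell on sites that the annotation lists several times. The distal Jarid2 site is given as 3 features with the same coordinates. In WT replicate 2-3, 299 of its TPM were assigned to 1 of them and 0.002 and 0.855 to the others; in WT replicate 4 the same features had 99.4, 100 and 106 TPM; in WT replicate 1 they had 3.18 to 3.39 TPM. Suz12 is given as 2 features of the same coordinates, 1 of which had 0.531, 0.470 and 147 TPM in the WT libraries while the sum stayed between 318 and 338. Sums at a shared site thus evened out the split at Suz12, but not the low sums at Ezh2 and Jarid2. Among sites reaching 10 TPM, a range of more than 4-fold within a group was found at 0.145% to 0.161% of single-feature sites without same-strand overlap. It was found at 13.9% to 18.5% of those listed as several features, and at 27.5% to 30.1% of those that share bases with another site. How reads were assigned among such features was not tested.

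**Figure D2:**
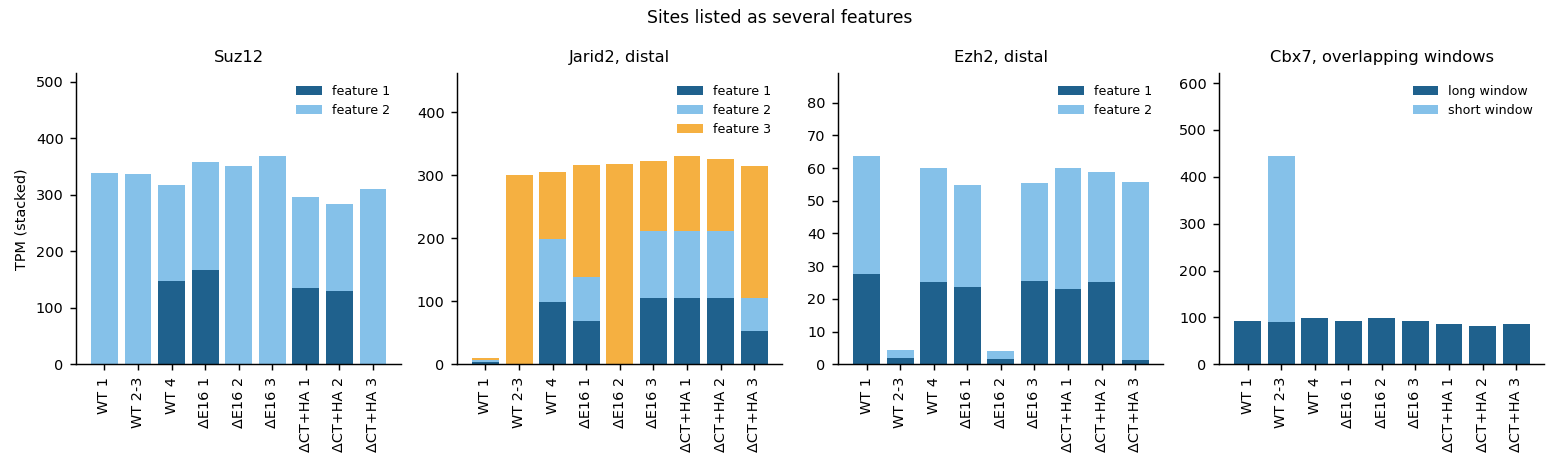
TPM of each library at 3 sites listed as several features of the same coordinates (Suz12, distal Jarid2, distal Ezh2) and at the 2 overlapping windows of Cbx7; colours separate features, stacked to their sum. Summed bars were level for Suz12, while WT 1 was low for Jarid2 (9.79 TPM), WT 2-3 and ΔE16 2 were low for Ezh2 (4.31 and 3.98 TPM), and the short Cbx7 window was filled in WT 2-3 alone (354 TPM).

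Rnf2 and Ring1, the ubiquitin ligases of PRC1, had overlapping levels in all 3 groups. Rnf2 (chr1:151467406-151471315) had 193, 176 and 174 TPM in WT, 179, 178 and 184 TPM in DIDO3ΔE16, and 176, 176 and 198 TPM in DIDO3ΔCT+HADIDO3. Its log2 fold change relative to WT was -0.07 ± 0.04 in DIDO3ΔE16 and -0.09 ± 0.06 in DIDO3ΔCT+HADIDO3, not significant in limma (adjusted p = 0.246 and 0.288). Ring1 (chr17:34018792-34021381) had 9.04, 12.8 and 11.004 TPM in WT, 12.3, 10.4 and 11.5 TPM in DIDO3ΔE16, and 10.1, 13.1 and 13.5 TPM in DIDO3ΔCT+HADIDO3. Neither gene separated any pair of groups. The SE of the Ring1 differences was 0.13 to 0.17 on the log2 scale, and that of the Rnf2 differences 0.04 to 0.06.

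Pcgf6, which with MGA and L3MBTL2 forms a variant PRC1, was lower than WT in both mutants at both of its 3′ ends. The distal site (chr19:47031617-47034628) had 147, 152 and 148 TPM in WT, 114, 119 and 126 TPM in DIDO3ΔE16, and 110, 105 and 111 TPM in DIDO3ΔCT+HADIDO3. Every mutant library lay below every WT library. The log2 fold change was -0.38 ± 0.04 in DIDO3ΔE16 (limma, adjusted p = 0.0025) and -0.56 ± 0.04 in DIDO3ΔCT+HADIDO3 (adjusted p = 0.000563). At the internal end (chr19:47038824-47042738), with 1915 bases of 3′UTR, WT had 36.0, 30.6 and 31.5 TPM, DIDO3ΔE16 23.6, 22.5 and 22.7 TPM, and DIDO3ΔCT+HADIDO3 27.7, 27.8 and 29.3 TPM. Here DIDO3ΔE16 was the lowest group, at -0.57 ± 0.07 (adjusted p = 0.00342), and DIDO3ΔCT+HADIDO3 lay between, at -0.31 ± 0.07 (adjusted p = 0.018). None of these 4 differences reached the fold threshold.

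Cbx7 has 2 windows that end 6 bases apart and overlap. The long one (chr15:79913813-79921116) had 91.4, 89.3 and 98.8 TPM in WT, 91.8, 97.7 and 91.4 TPM in DIDO3ΔE16, and 86.3, 81.2 and 84.9 TPM in DIDO3ΔCT+HADIDO3. The latter lay below all WT libraries, by -0.25 ± 0.06 (limma, adjusted p = 0.0265), under the fold threshold. The short window (chr15:79913807-79918318) had 354 TPM in WT replicate 2-3 and at most 0.014 TPM in the other 8 libraries. Its fitted log2 fold changes relative to WT, -3.82 ± 3.57 and -3.91 ± 3.58, rested on that library; without it they were 0.11 and 0.02.

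Kdm2b was the only one of the 10 genes with a call. Its distal site (chr5:122868675-122871715, reverse strand) has 1041 bases of 3′UTR, and 65.4% of the window lies beyond the gene. It had 140, 131 and 127 TPM in WT, 162, 167 and 164 TPM in DIDO3ΔE16, and 82.6, 86.0 and 88.7 TPM in DIDO3ΔCT+HADIDO3. The mutants thus lay on opposite sides of WT, with no overlap. In DIDO3ΔCT+HADIDO3 it fell by 0.73 on the log2 scale (SE 0.04, a fold of 0.603; limma, adjusted p = 0.000282). In DIDO3ΔE16 it was higher by 0.25 ± 0.04 (adjusted p = 0.00572), under the fold threshold. Between the mutants the difference was 0.96 ± 0.03 (adjusted p = 2.8e-05), a fold of 1.94. The call relative to WT lay near the threshold: without scaling between libraries the value was -0.63, with quantile normalization -0.62, and with all features of the gene summed -0.68, with adjusted p of 0.000947, 0.000756 and 0.000287, and was not called. Scaling lowered the median log2 fold change of all sites in that comparison by 0.097. The difference between the mutants stayed called in each of these, and leaving out any 1 library left both calls in place.

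Other Kdm2b sites had low levels. The second site (chr5:122873482-122878318) had 3.06, 2.98 and 2.02 TPM in WT, 4.09, 3.86 and 4.72 TPM in DIDO3ΔE16, and 2.06, 1.65 and 1.55 TPM in DIDO3ΔCT+HADIDO3. It followed the order of the distal site. It was higher in DIDO3ΔE16 than in DIDO3ΔCT+HADIDO3 by 1.25 ± 0.17 (limma, adjusted p = 0.00239), and its difference of -0.67 ± 0.22 in DIDO3ΔCT+HADIDO3 relative to WT (adjusted p = 0.0629) was called without WT replicate 4 (-0.85, adjusted p = 0.032) and with quantile normalization (-0.82, adjusted p = 0.0373). The third site (chr5:122885847-122888436, 77.2% intron) went the other way. It had 0.948, 2.43 and 0.693 TPM in WT, 1.81, 1.05 and 2.37 TPM in DIDO3ΔE16, and 3.14, 2.87 and 2.52 TPM in DIDO3ΔCT+HADIDO3, with all 3 of the latter highest. Its difference in DIDO3ΔCT+HADIDO3 relative to WT, 1.10 ± 0.46 (adjusted p = 0.124), was called without WT replicate 2-3 (1.59, adjusted p = 0.0099) and over sites listed as 1 feature with no shared base (1.08, adjusted p = 0.0345). The last site, nearest the gene's start, stayed at or below 0.602 TPM.

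The distal Kdm2b window shares 2271 bases with a window of Rnf34, a ubiquitin ligase gene on the opposite strand, and although the libraries were stranded, the command that made the values names no strand option, so reads of the 2 genes may not be told apart. Rnf34 had 82.5, 81.8 and 74.3 TPM in WT, 76.6, 70.9 and 78.2 TPM in DIDO3ΔE16, and 83.1, 86.3 and 87.1 TPM in DIDO3ΔCT+HADIDO3. Its level ran against that of Kdm2b between the mutants, by -0.17 ± 0.05 (limma, adjusted p = 0.0352). Its part in the Kdm2b values was not tested.

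**Figure D3:**
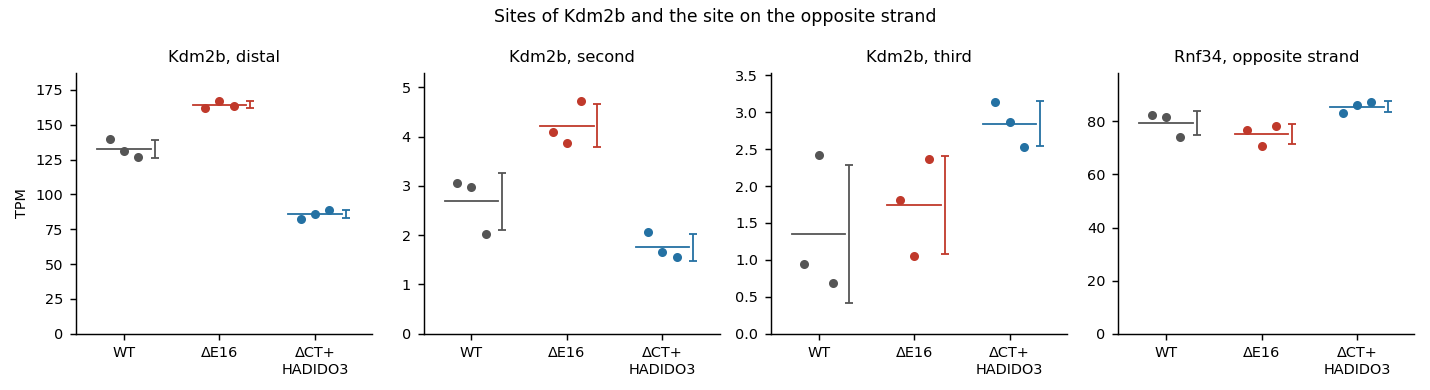
TPM at the distal, the second and the third site of Kdm2b and at the Rnf34 site on the opposite strand, by group; points are libraries, lines the mean of 3, bars the SD. The distal and second sites were highest in ΔE16 and lowest in ΔCT+HADIDO3, the third site was highest in ΔCT+HADIDO3, and Rnf34 stayed between 70.9 and 87.1 TPM.

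Levels of windows at separate 3′ ends were compared over 2554 genes. The measure was the log2 ratio of the most distal to the most proximal end with a mean of at least 1 TPM. Ezh2, Jarid2, Pcgf6 and Kdm2b have such ends, and their proximal windows are 91.0%, 90.7%, 48.6% and 77.2% intron. Whether reads in these windows came from transcripts that end there was not tested, so the ratio does not measure use of 3′ ends. No ratio of these was called in DIDO3ΔE16 or DIDO3ΔCT+HADIDO3 relative to WT, against 11.6% and 11.3% of all genes. Between the mutants, that of Kdm2b was called, against 25% of all genes. The log2 ratio of its distal site to the third site was 7.06, 5.70 and 7.32 in WT, 6.41, 7.18 and 6.05 in DIDO3ΔE16, and 4.68, 4.86 and 5.08 in DIDO3ΔCT+HADIDO3. All DIDO3ΔCT+HADIDO3 libraries lay below the other 6. The ratio was higher in DIDO3ΔE16 by 1.68 ± 0.32 (limma, adjusted p = 0.0144), and the call was lost without DIDO3ΔCT+HADIDO3 replicate 1 (1.58, adjusted p = 0.0511) or replicate 2 (1.67, adjusted p = 0.0501). Relative to WT it was -1.82 ± 0.47 in DIDO3ΔCT+HADIDO3 (adjusted p = 0.0638), called without WT replicate 2-3 (-2.32, adjusted p = 0.00963) and with a pseudocount of 1 (-1.40, adjusted p = 0.0333). For Pcgf6 the ratio was 0.44 ± 0.10 higher in DIDO3ΔE16 than in DIDO3ΔCT+HADIDO3 (adjusted p = 0.0222), under the fold threshold.

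**Figure D4:**
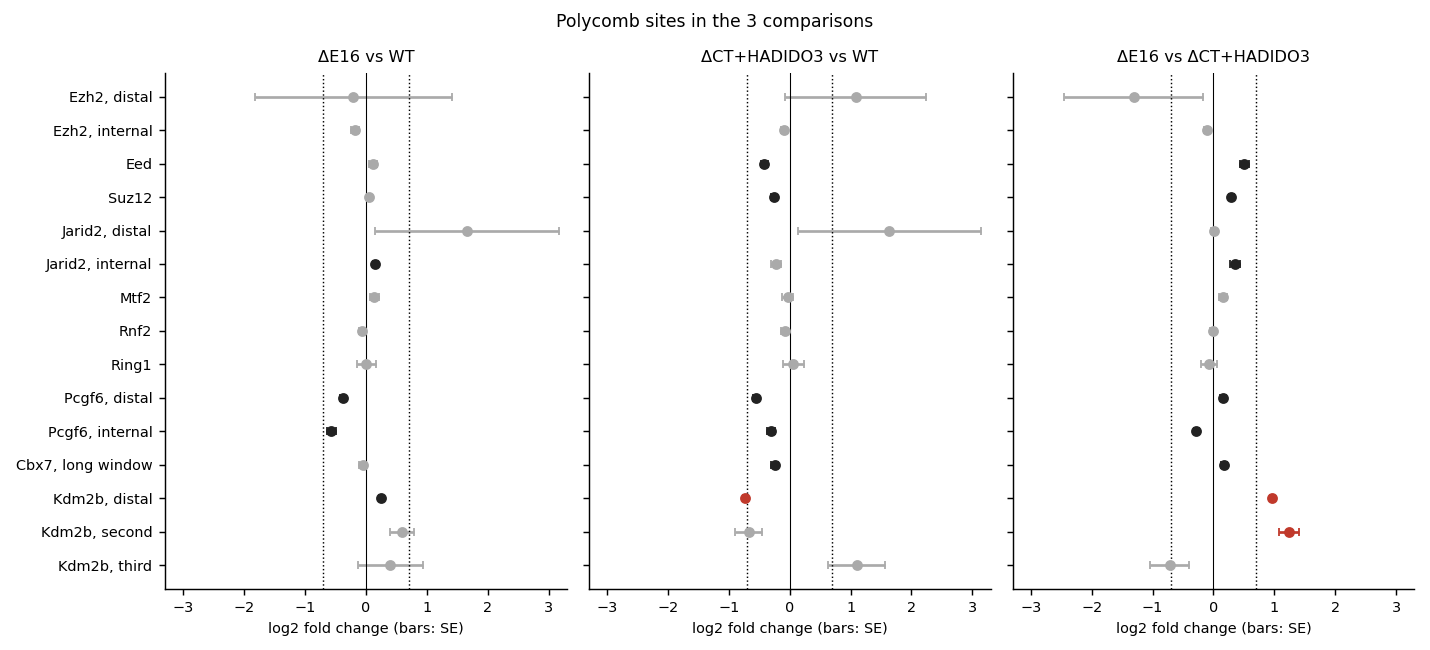
Log2 fold changes of the Polycomb sites with a mean of at least 1 TPM (the short Cbx7 window left out), with SE bars from limma, in the 3 comparisons; dotted lines mark the threshold of 0.7, red points are called, black points have an adjusted p under 0.05 only and grey points neither. Red points are the distal Kdm2b site in ΔCT+HADIDO3 relative to WT (-0.73) and the distal and second Kdm2b sites between the mutants (0.96 and 1.25); the widest bars belong to the distal sites of Ezh2 and Jarid2.

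Over the 9 libraries, the sites of other genes most like the distal Kdm2b site in log2 TPM were those of Zfp617 and Dennd5b, each with a Pearson r of 0.998 among 15196 sites compared. Zfp617 had 37.3 to 46.3 TPM in WT, 54.5 to 57.7 TPM in DIDO3ΔE16 and 18.3 to 20.1 TPM in DIDO3ΔCT+HADIDO3. Eed was most like Trmt2a (r = 0.982) and Zfp345 (r = 0.98). The distal Jarid2 site was most like Ctdsp2 (r = 1) and Eif4h (r = 0.999), which were also low in WT replicate 1 alone, at 4.42 and 3.82 TPM. These 9 points fall into 3 groups of libraries, and the values are a description of these libraries.

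Other PRC2 subunits were examined for context, 1 site a gene. Of 8 genes, 2 rose in DIDO3ΔE16 and 2 fell in DIDO3ΔCT+HADIDO3 relative to WT, and 2 were higher in DIDO3ΔE16 than in DIDO3ΔCT+HADIDO3 (25% each, against 15.1%, 17.3% and 27.4% of all sites). The list's median log2 fold change was 0.002, -0.07 and 0.20. Epop, a PRC2 partner that binds elongin BC, took part in all of these. It had 432, 451 and 435 TPM in WT, 872, 869 and 893 TPM in DIDO3ΔE16, and 261, 252 and 228 TPM in DIDO3ΔCT+HADIDO3, from 1 feature that shares no base with another. It rose by 0.94 ± 0.03 in DIDO3ΔE16 (limma, adjusted p = 0.000124) and fell by 0.94 in DIDO3ΔCT+HADIDO3 (SE 0.07, adjusted p = 0.000755). The direction in each mutant matched that of the distal Kdm2b site. The histone-binding subunits gave the remaining calls, Rbbp4 in DIDO3ΔE16 (1.66 ± 0.43, adjusted p = 0.0363) and Rbbp7 in DIDO3ΔCT+HADIDO3 (-1.01 ± 0.24, adjusted p = 0.025). Both levels were low. Rbbp4 had 1.66 to 5.35 TPM in WT and 8.39 to 11.5 TPM in DIDO3ΔE16, and Rbbp7 7.83 to 10.9 TPM in WT and 3.77 to 6.73 TPM in DIDO3ΔCT+HADIDO3. Both share bases with features on the opposite strand, Sync and Txlng, that varied widely within WT. A Sync window had 592, 14.0 and 17.8 TPM in the WT libraries, and Txlng lay between 51.4 and 225 TPM. The Rbbp4 call was lost without any 1 of 5 of the 6 libraries (adjusted p 0.0521 to 0.103; kept without WT replicate 2-3), and the Rbbp7 call without WT replicate 1 or 4 or DIDO3ΔCT+HADIDO3 replicate 1 or 2 (adjusted p 0.0502 to 0.0757). With flow cell family as covariate or with the replicate block neither was called (adjusted p 0.106 and 0.105 for Rbbp4, 0.128 and 0.134 for Rbbp7).

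Of 27 other PRC1 genes, 2 rose and 1 fell in DIDO3ΔE16, and 1 rose and 1 fell in DIDO3ΔCT+HADIDO3. These shares, 11.1% and 7.41%, were below those of all sites, 15.1% and 17.3%, and the median was -0.06 and -0.30. Pcgf1, the PCGF subunit of the KDM2B complex, had 1.05, 1.28 and 1.26 TPM in WT, 3.76, 4.24 and 4.52 TPM in DIDO3ΔE16, and 1.07, 1.32 and 1.71 TPM in DIDO3ΔCT+HADIDO3. It rose in DIDO3ΔE16 by 1.67 ± 0.15 (limma, adjusted p = 0.00132). Bcorl1, a homologue of the corepressor of that complex, rose by 0.91 ± 0.09 (adjusted p = 0.00158). Bcor, the corepressor itself, was not called (-0.05 ± 0.06, adjusted p = 0.577). Nor were Skp1a and Usp7, other parts of that complex (-0.17 ± 0.04 and -0.43 ± 1.32). Pcgf5, the PCGF subunit of a further variant PRC1, had 42.6 to 43.3 TPM in WT, 24.4 to 28.5 TPM in DIDO3ΔE16 and 55.8 to 69.3 TPM in DIDO3ΔCT+HADIDO3. It fell in DIDO3ΔE16 by 0.75 ± 0.06 (adjusted p = 0.00113), a call lost without DIDO3ΔE16 replicate 1 (-0.69). In DIDO3ΔCT+HADIDO3, Bmi1, also called Pcgf4, fell by 0.84 (SE 0.15, adjusted p = 0.00952). That call was lost with the replicate block (adjusted p = 0.0776), with flow cell family as covariate (-0.68) and with 1 flow cell family (adjusted p = 0.114). Of 9 genes tested for the H2A deubiquitinase complex and the H3 demethylases, none was called in DIDO3ΔE16. Bap1, also on this list, had a mean of 0 TPM in every group and was not tested. Its site shares bases with 2 sites on the opposite strand. Asxl2 fell in DIDO3ΔCT+HADIDO3 by 1.52 (SE 0.09, adjusted p = 0.000327), from 42.2 to 52.8 TPM in WT to 16.4 to 18.7 TPM. In DIDO3ΔE16 it had 66.8, 69.6 and 8.79 TPM. The Asxl2 call was lost in 1 limma fit of all 9 libraries (adjusted p = 0.163) and with flow cell family as covariate (adjusted p = 0.408).

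Hox genes and lineage regulators are known targets of Polycomb repression in ESC. Of 39 Hox genes, 36 had a site and most were near 0. In DIDO3ΔE16, 14 of the 32 tested (43.8%) rose and none fell, where 10.2% of all sites rose and 4.94% fell. The share of all sites is not matched for level, and only 12 of the Hox genes tested had a mean of at least 1 TPM. Hoxa3, Hoxa11, Hoxb8, Hoxc5, Hoxc8, Hoxd11 and Hoxd12, among those called, had means of 0.32 to 0.94 TPM over the 9 libraries. In DIDO3ΔCT+HADIDO3 4 rose and 2 fell of 23, where 10.1% of all sites rose and 7.24% fell. The median log2 fold change of those tested was 0.92 and -0.01. The latter leaves out 13 Hox genes with a library at 0, of which 11 had a lower mean in DIDO3ΔCT+HADIDO3 than in WT and 2 a higher one (at most 0.557 TPM in WT and 0.433 TPM in DIDO3ΔCT+HADIDO3), so that count and median do not describe all Hox genes. Likewise 4 were left out in DIDO3ΔE16, all 4 with a higher mean than in WT. The summed level of the 36 Hox genes was 37.8 to 40.8 TPM in WT, 90.1 to 124 TPM in DIDO3ΔE16 and 49.8 to 57.6 TPM in DIDO3ΔCT+HADIDO3. Without Hoxb9 it was 34.9 to 37.4, 60.5 to 69.9 and 42.3 to 49.8 TPM. The largest log2 fold change among the Hox genes named was that of Hoxb9, whose window shares bases with another site on its strand. It had 2.33, 3.63 and 3.38 TPM in WT, 52.9, 53.7 and 29.6 TPM in DIDO3ΔE16, and 7.67, 7.82 and 7.52 TPM in DIDO3ΔCT+HADIDO3, and it rose in both (3.73 ± 0.31, adjusted p = 0.00113, and 1.20 ± 0.19, adjusted p = 0.00682; limma), the latter not called with flow cell family as covariate (0.97, adjusted p = 0.113). Hoxc4, Hoxa10 and Hoxa13 rose in DIDO3ΔE16 by 1.41, 1.43 and 1.47, Hoxa13 not called with flow cell family as covariate (adjusted p = 0.09) or with 1 flow cell family (adjusted p = 0.0519). Hoxb13 rose in DIDO3ΔCT+HADIDO3 by 2.26 ± 0.27 (adjusted p = 0.00286), against 0.01 in DIDO3ΔE16, and the difference between the mutants was -2.27 (adjusted p = 0.000536). Hoxd1 rose there by 1.46 ± 0.31 (adjusted p = 0.0173), a call lost without DIDO3ΔCT+HADIDO3 replicate 2 or 3 (adjusted p 0.0598 and 0.0584), with the replicate block (0.0563), with flow cell family as covariate (0.0627) and with 1 flow cell family (0.0604). The count in DIDO3ΔE16 was 9 without DIDO3ΔE16 replicate 2 or with quantile normalization, and 7 with the WT library of the mutants' flow cell family alone.

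The summed level of 10 markers of fibroblast feeder cells had the same order of groups as the Hox sum. Among markers with a mean of at least 1 TPM, only Vim had this order by itself. Its means were 56.7 TPM in WT, 82.1 TPM in DIDO3ΔE16 and 79.8 TPM in DIDO3ΔCT+HADIDO3. Thy1 and Pdgfrb were highest in DIDO3ΔCT+HADIDO3, and Col1a1, Col1a2, Col3a1, Col6a3 and Postn were lowest there. The 10 markers added up to 111 to 120 TPM in WT, 203 to 216 TPM in DIDO3ΔE16 and 171 to 180 TPM in DIDO3ΔCT+HADIDO3. Of 8 markers tested in DIDO3ΔE16, 6 rose (75%), where 10.2% of all sites rose. In DIDO3ΔCT+HADIDO3, 4 of 5 tested were called (80%, against 17.3% of all sites). Thy1 and Pdgfrb rose there while Col1a1 and Col1a2 fell, the latter from 16.7 to 20.0 TPM in WT to 0.229 to 0.246 TPM. Postn, Col3a1 and Col6a3 were not tested there, with means of 1.88, 0.815 and 0.572 TPM in WT and 0.0203, 0 and 0.036 TPM in DIDO3ΔCT+HADIDO3. Lum was at 0 in 8 of 9 libraries and Dcn in 6. The part of other cells in the Polycomb, Hox and lineage values was not tested, and fewer cells of a type and less RNA per cell cannot be told apart in bulk RNA.

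Among 25 lineage genes, 4 rose and 4 fell of 20 tested in DIDO3ΔE16, and 1 rose and 11 fell of 19 in DIDO3ΔCT+HADIDO3 (40% and 63.2% called, against 15.1% and 17.3% of all sites). The median log2 fold change was 0.07 and -0.95. Their summed level was 210 to 223 TPM in WT, 169 to 195 TPM in DIDO3ΔE16 and 63.3 to 71.0 TPM in DIDO3ΔCT+HADIDO3. Much of this was Olig2, an oligodendrocyte and motor neuron factor named here after its values were seen. It had 86.1, 96.0 and 86.1 TPM in WT, 44.3, 48.2 and 57.8 TPM in DIDO3ΔE16, and 0, 0.143 and 0.059 TPM in DIDO3ΔCT+HADIDO3, where a library at 0 kept it out of the test. Without it the sums were 124 to 131, 125 to 137 and 63.3 to 71.0 TPM. The 4 lineage genes that rose in DIDO3ΔE16 were Eomes, Cdkn2b, Cdkn2a and Otx1. Eomes had means of 29.9 TPM in WT, 57.4 TPM in DIDO3ΔE16 and 19.7 TPM in DIDO3ΔCT+HADIDO3. It rose by 0.88 ± 0.04 in DIDO3ΔE16 (limma, adjusted p = 0.00032) and was called lower in DIDO3ΔCT+HADIDO3 (-0.70 ± 0.06, adjusted p = 0.00119). The others rose in DIDO3ΔE16 by 0.85, 1.05 and 0.95. The endoderm factors Gata4 and Gata6 fell in both mutants, Gata4 from 31.7 to 36.4 TPM in WT to 11.98 to 14.8 TPM in DIDO3ΔE16 (-1.37 ± 0.10, limma, adjusted p = 0.000836) and 10.7 to 11.9 TPM in DIDO3ΔCT+HADIDO3 (-1.65 ± 0.08, adjusted p = 0.000212). Gata6 had 12.3 to 13.6 TPM in WT, 3.76 to 6.23 TPM in DIDO3ΔE16 (-1.55 ± 0.21, adjusted p = 0.00436) and 6.29 to 7.60 TPM in DIDO3ΔCT+HADIDO3 (-0.98 ± 0.09, adjusted p = 0.00136), not called with 1 flow cell family (adjusted p = 0.0648) and with flow cell family as covariate (adjusted p = 0.0564), in the same order. Sox17 and Neurog1 fell in DIDO3ΔCT+HADIDO3, with log2 fold changes of -2.33 and -3.25. Both levels were low. Sox17 had 2.38 to 3.38 TPM in WT and 0.522 to 0.574 TPM in DIDO3ΔCT+HADIDO3, and Neurog1 2.19 to 3.31 and 0.106 to 0.395 TPM. Over the alternative settings the fold changes ranged from -2.505 to -1.41 for Sox17 and from -3.73 to -1.68 for Neurog1.

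**Figure D5:**
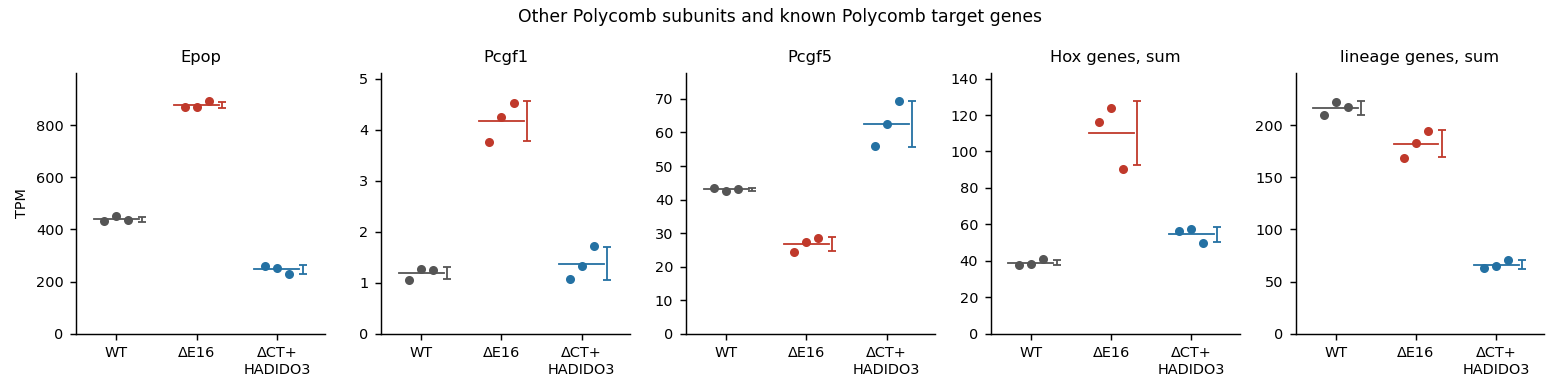
TPM of Epop, Pcgf1 and Pcgf5 and the summed TPM of 36 Hox genes and 25 lineage genes, by group; points are libraries, lines the mean of 3, bars the SD. Epop lay at 432 to 451 TPM in WT, 869 to 893 in ΔE16 and 228 to 261 in ΔCT+HADIDO3; the Hox sum was highest in ΔE16 (90.1 to 124 TPM) and the lineage sum lowest in ΔCT+HADIDO3 (63.3 to 71.0 TPM).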

How the data were processed

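The authors aligned RNA-seq reads of ESC to mm10 with BWA (0.7.15), removed duplicates, and ran StringTie (1.3.3), naming no strand option, over UCSC 3′UTRs extended by 2 kb. The authors deposited TPM for each feature; mean coverage was used for depth only. As the deposited values are not counts, limma took the place of a count test. TPM of features with identical coordinates were summed and named by GENCODE vM21. Scaling used the trimmed mean log2 ratio between libraries, with 30% trimmed from both tails. After a pseudocount of 0.1, the log2 data went into limma (3.58.1, R 4.3.3; trend, robust, 2-sided, Benjamini-Hochberg over all sites). Ratios of 3′ ends were fitted likewise. Python (3.11.15) made summaries and plots. The fit was tested on simulated data. The 3 comparisons were between all pairs of groups. Genes were named by these rules: all Polycomb members with sites of at least 1 TPM, up to 6 called genes of each list with the largest change, 2 most alike sites for the 3 members of widest range, and Dido1. The members and lists (the other subunits, targets, ESC and feeder markers) were chosen with earlier results of these data known. Further list genes, such as Olig2, Eomes, Cdkn2b, Cdkn2a and Otx1, were named outside these rules after their values were seen. The alternatives comprised pseudocounts, filters, scalings, summing, overlaps, flow cell family, thresholds, leaving out each library and a replicate block; the sites listed as 1 feature with no shared base and the libraries of 1 flow cell family were added after seeing the data. Some genes that these rules name are not reported here.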

Additional observations from a re-analysis of the deposited data

Results flagged for a closer look

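The differences between DIDO3ΔE16 and DIDO3ΔCT+HADIDO3 are given here as log2 fold changes, each tested directly between the mutants with limma. The distal and second Kdm2b sites were higher in DIDO3ΔE16 by 0.96 and 1.25, and the ratio of the distal to the third site of Kdm2b by 1.68. Epop was higher by 1.85 (adjusted p = 4.95e-05), with 0.94 and -0.94 relative to WT. Among other subunits, the difference was 1.58 for Pcgf1, 0.89 for Rbbp7, 0.76 for Bmi1 and -1.20 for Pcgf5 (adjusted p 0.00156, 0.0258, 0.00715 and 0.000315). The Rbbp7 call was lost without DIDO3ΔE16 replicate 1 or 2 or DIDO3ΔCT+HADIDO3 replicate 1 or 2, and the Bmi1 call without DIDO3ΔCT+HADIDO3 replicate 1 (0.68). Among Hox genes it was 1.71 for Hoxa10, 1.90 for Hoxa13, 2.52 for Hoxb9, 1.4 for Hoxc4 and -2.27 for Hoxb13. Among lineage genes it was 2.65 for Neurog1 and 1.58 for Sox17. The reason for these differences was not tested. Groups of 3 libraries were too small for a test of outlying libraries.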

How the results depend on the processing

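For Polycomb sites, the count called in DIDO3ΔE16 relative to WT was 0, and 1 with flow cell family as covariate or with 1 flow cell family only (the short Cbx7 window). In DIDO3ΔCT+HADIDO3 it was 1, but 0 without scaling, with all features of a gene summed or without bases shared on the opposite strand (which removes the distal Kdm2b site), 2 with flow cell family as covariate, 3 with 1 flow cell family, and 1 to 2 leaving out single libraries. Between the mutants it was 2, but 1 with features of a gene summed, without bases shared on the opposite strand or over single features. Over all settings this count ranged from 1 to 3. For ratios of 3′ ends, 0 became 1 in DIDO3ΔCT+HADIDO3 with a pseudocount of 1 or with 1 flow cell family, and 0 to 1 leaving out single libraries. The call between the mutants, 1, became 0 at an adjusted p under 0.01, with ends of at least 5 TPM and with the replicate block, and was 0 to 1 leaving out single libraries. Over all sites, 3191 calls in DIDO3ΔE16 became 2111 at an adjusted p under 0.01 and 2080 over single features, and 5791 between the mutants became 3620 over single features.

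Values that changed sign were not called in the main comparison. In DIDO3ΔE16 relative to WT they were the long Cbx7 window (0.0076 without scaling, 0.047 with quantile normalization, 0.0065 with the flow cell covariate), Rnf2 (0.0199, quantile), Ring1 (-0.0542 quantile, -0.23 covariate, -0.0074 gene sum, -0.24 with 1 flow cell family), distal Ezh2 (2.34 covariate, 2.32 with 1 family, 0.87 replicate block), the third Kdm2b site (-0.58, -0.59 and -0.0123 likewise), and the ratios of Kdm2b (0.0475 pseudocount 1, 0.24 block, 0.85 with 1 family), Ezh2 (1.06 block, 2.595 with 1 family) and Jarid2 (-0.0542 with 1 family). In DIDO3ΔCT+HADIDO3 they were, without scaling and with quantile normalization, Mtf2 (0.0705, 0.11), Rnf2 (0.0177, 0.0516) and internal Ezh2 (0.0019, 0.0157, and 0.0945 for the gene sum), then Ring1 (-0.17 covariate, -0.18 with 1 family) and distal Jarid2 (-0.0004 with 1 family). Between the mutants they were Rnf2 (0.0193 at a mean of 1 TPM, 0.0094 in a fit of 9 libraries) and distal Jarid2 (-0.0175, -0.0305 and -0.0007 without scaling, with quantile normalization and with equal 3′ ends summed).

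Leaving out single libraries gave, in DIDO3ΔE16 relative to WT, -1.48 to 1.05 for distal Ezh2, -0.13 to 0.12 for Ring1, -5.79 to 0.11 for the short Cbx7 window, and for ratios -0.64 to 0.17 (Kdm2b), -1.34 to 1.20 (Ezh2) and -0.13 to 2.37 (Jarid2). In DIDO3ΔCT+HADIDO3 it gave -0.0193 to 2.47 for distal Jarid2, -0.10 to 0.0361 for Mtf2, -0.0806 to 0.18 for Ring1, -0.19 to 1.73 for distal Ezh2, -5.89 to 0.0247 for the short Cbx7 window and -0.13 to 1.86 for the Ezh2 ratio. Between the mutants it gave -0.0405 to 0.0329 for Rnf2, -0.0373 to 0.0249 for distal Jarid2 and -1.84 to 0.0183 for the Ezh2 ratio. A lone library left in a group was assumed to vary like the others. Except where the construction is named, the cause was not tested.

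Deviations of same-numbered libraries correlated at -0.109 to 0.035 over 9167 sites, so the numbers were not taken to pair libraries. With the replicate block the counts of Polycomb sites stayed at 0, 1 and 2, and all sites called were 2409, 2890 and 5183; the Kdm2b ratio between the mutants had an adjusted p of 0.0586. Of the DIDO3ΔE16 libraries, only replicate 3 correlated best with its own number in DIDO3ΔCT+HADIDO3. Depth limits sites under 1 TPM, where mean coverage was below 1 read per base.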
